A study of Mus musculus with 6 samples.

Results

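The genes of the cytosolic ribosomal proteins were compared between Rora conditional knockout (cKO) and floxed mouse ILC1s, innate lymphocytes of group 1 that make interferon-γ and resemble natural killer (NK) cells in many genes. A row of the deposited table was a member if its symbol was Rpl or Rps with a number, with or without the endings a, l, x, l1 or al, or was Rpsa, Rplp0, Rplp1 or Rplp2, and rows named as pseudogenes were left out. This rule took 85 of 24628 rows, 33 of the small (40S) subunit and 52 of the large (60S) subunit, and it used no measured value. The members lay on 19 chromosomes, and 4 tested members (Rps4x, Rpl10, Rpl36a and Rpl39) were X-linked. RNA-seq had been made from 3 cKO libraries, titled only as treatment, and 3 libraries titled with floxed Rora alleles, where Rora encodes RORα, a nuclear receptor. The treatment libraries were taken as cKO by elimination, since the series text names wild-type and cKO ILC1s, and their columns add Ncr1, the gene of the NK receptor NKp46, to Rora. The labels call the cells lymphocytes and give no Cre line, sort gate, sex, age or number of animals, and they do not say whether replicates came from separate animals. The p-values therefore measure only the spread between these libraries, which may be technical.

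A ribosome holds its proteins in fixed proportions beside its ribosomal RNA, and the cell makes these proteins in matched amounts. Their messenger RNAs begin with a C followed by a run of pyrimidines, the 5′ terminal oligopyrimidine (TOP) tract, through which the kinase complex mTORC1 and the RNA-binding protein LARP1 control how much of each mRNA is translated. In lymphocytes, activation through mTORC1 and Myc raises ribosome production. RNA-seq shows the amount of mRNA and not its translation, and in these libraries a lower share of a cell type and less RNA per cell cannot be told apart.

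Starts of several members described below, and of Rps6 as a well-studied TOP mRNA, are shown here so that pyrimidine runs near them can be read. Each line holds 15 bases before and 15 bases from a transcription start in RefSeq on GRCm38.p6, on the transcribed strand, and capitals mark a C followed by at least 5 bases that are each C or T. In Rps27l and Rpl19 the run lies wholly before the start shown, and so outside the mRNA that begins there. Each of them has another listed start without such a run (windows chr9:66946398-66946427 and chr11:98026695-98026724). Rps14 is not shown. Rpl22, the paralogue of Rpl22l1, is shown because neither of its listed starts holds such a run.
Rps27 (chr3:90213634-90213663, minus): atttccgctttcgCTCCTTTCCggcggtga
Rps27l (chr9:66946071-66946100, plus): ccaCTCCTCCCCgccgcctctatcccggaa
Rpl22l1 (chr3:28805493-28805522, plus): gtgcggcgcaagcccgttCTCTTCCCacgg
Rpl22 (chr4:152324421-152324450, plus): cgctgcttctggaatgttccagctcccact
Rpl19 (chr11:98026909-98026938, plus): tgggCTCTCCCCTTCgcagataatgggcgg
Rpl12 (chr2:32961697-32961726, plus): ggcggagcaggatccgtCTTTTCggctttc
Rpl15 (chr14:18270972-18271001, minus): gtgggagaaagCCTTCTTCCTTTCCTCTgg
Rps6 (chr4:86857353-86857382, minus): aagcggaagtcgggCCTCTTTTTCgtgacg

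Of the 85 members, 62 had a start in the RefSeq table, with 74 windows of 30 bases. The run was present in 37 of the 74 windows (50%) and in at least 1 window of 36 of the 62 members (58.1%), against 7384 of 32851 windows of all genes (22.5%). Read on the other strand, 6.76% of member windows held it, against 25.5% of all windows. A match describes the letters of a window, of which 15 bases lie before the start. Besides Rps27l and Rpl19, the run lay wholly before the start in a window of Rpl10a, Rpl13, Rpl31, Rpl34, Rpl39l, Rpl4, Rpl6 and Rps15a. A match is therefore not by itself a TOP tract of the mRNA. A window without one says only that these letters are not there. The log2 difference, cKO minus floxed, had a median of 0.03 over the 35 tested members with the run (from -0.51 to 0.37) and of 0.04 over the 25 tested members without it (from -0.10 to 0.19).

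Depth was 21111333 to 22440170 reads per library in cKO and 20152146 to 21711523 in floxed libraries. Rora itself was at 5.69, 6.29 and 6.24 RPKM in cKO, against 6.92, 7.41 and 7.91 RPKM in floxed libraries. Its cKO values lay below its floxed values, with a log2 difference of -0.25 and adjusted p = 0.242 in limma and 0.0242 in voom, and these whole-gene values keep exons outside any deleted part. The label of the cells was checked against 10 markers of type 1 ILCs and NK cells, all of which were detected. The list joins markers of both cell types, so it could not tell ILC1s from NK cells. Their summed levels were 1037 to 1065 RPKM in cKO and 1108 to 1130 RPKM in floxed libraries. Single markers moved both ways, and 2 of the 10 passed as higher in cKO (Gzma and Eomes) and 1 as lower (Ncr1). Ncr1 was at 246 ± 12.5 RPKM in cKO and 372 ± 10.8 RPKM in floxed libraries (log2 difference -0.60, limma, adjusted p = 0.00446). Other lists moved with the groups. Of 25 tested immediate-early genes, 19 passed as higher in cKO and 0 as lower (median log2 difference 0.52). The Y-linked Ddx3y was at 20.8 ± 0.438 RPKM in cKO and 10.4 ± 0.498 RPKM in floxed libraries (SD, n = 3 each), and Xist, the RNA of the inactive X, at 9.43 ± 0.394 RPKM in cKO and 31.9 ± 3.16 RPKM in floxed libraries. Of 7 B cell markers, 3 of the 4 tested passed as lower in cKO, with summed levels of 63.4 to 72.3 RPKM in cKO and 104 to 113 RPKM in floxed libraries, while the B cell markers Ms4a1 and Cd79a averaged below 1 RPKM in both groups. Of 6 T cell markers, 1 of the 4 tested passed as lower in cKO, Cd3e, at 2.93 ± 0.142 RPKM in cKO and 5.35 ± 0.430 RPKM in floxed libraries. Summed T cell markers were at 53.8 to 59.4 RPKM in cKO and 58.1 to 61.3 RPKM in floxed libraries, and macrophage markers at 23.2 to 24.0 RPKM in cKO and 24.1 to 28.5 RPKM in floxed libraries. The part of any of these in the values below was not tested.

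Most ribosomal protein genes had nearly the same RNA level in cKO and floxed ILC1s. Of the 85 members, 83 reached 1 RPKM in at least 3 libraries and were tested, and 52 of these differed by less than 0.1 on the log2 scale. Rps14 and Rps27, both of the small subunit, passed the test as higher in cKO, and 0 members passed as lower. RPKM is the number of reads relative to a gene's length and a library's depth, and every log2 difference is that of log2(RPKM + 1) in cKO minus floxed. The threshold was an adjusted p (Benjamini-Hochberg) under 0.05 in a limma fit of all 12731 tested genes. Higher calls made up 2.41% (2 of 83) of the members and lower calls 0, against 0.652% and 0.668% of all tested genes, or 1.32% in either direction. At an unadjusted p under 0.05, limma placed 12 members higher and 3 lower, against 5.55% and 8.6% of all tested genes. With limma voom on the reads recovered from the RPKM, 10 members (12.0%) were higher and 1 (1.20%) was lower. Voom called 1.78% of all tested genes higher and 2.41% lower, or 4.19% in either direction. The 95% confidence interval of a member's difference, which is not adjusted, reached a median of 0.15 to either side, from 0.08 to 0.65. Differences well below this were not detectable in most members. The adjusted threshold was stricter than the interval, so some larger differences did not pass either, such as 0.37 in Rpl22l1 (limma, adjusted p = 0.0535).

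**Figure D1:**
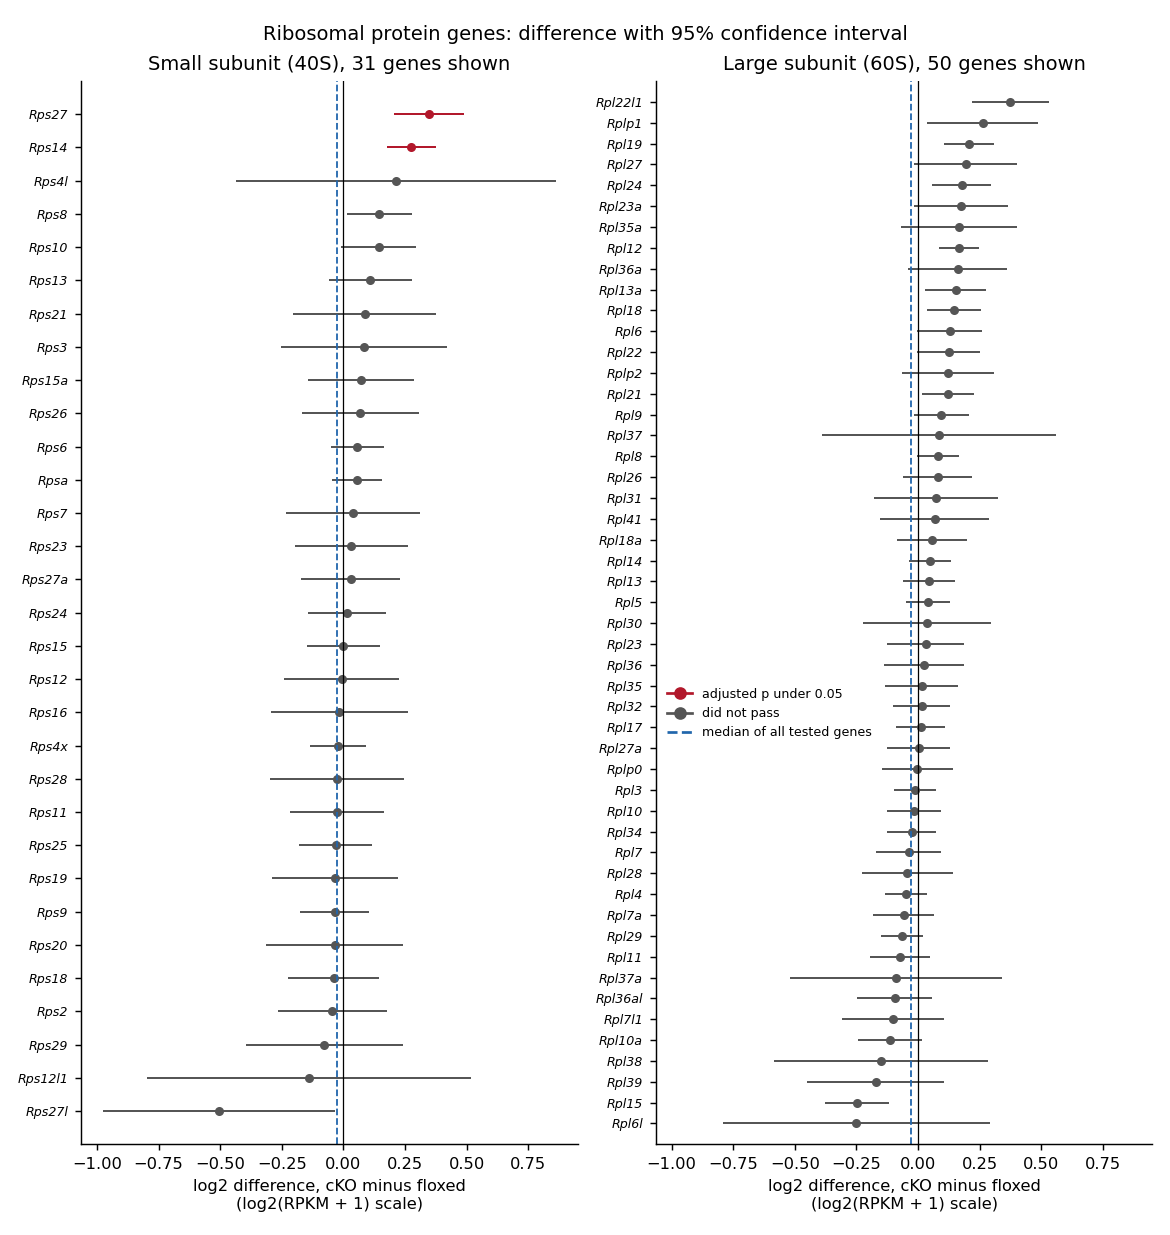
Log2 difference of RPKM + 1, cKO minus floxed (horizontal axis), for 31 of the 33 tested genes of the small subunit and the 50 of the large subunit, with 95% confidence intervals from limma. Red marks Rps27 and Rps14, which passed at an adjusted p under 0.05, and the dashed line is the median of all 12731 tested genes, -0.03; most points lie within 0.1 of 0.

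Rps14 encodes a protein of the 40S platform whose partial loss underlies the anaemia of the human 5q- syndrome. It was at 278.3, 274.4 and 263 RPKM in cKO, against 229.5, 225 and 219 RPKM in floxed libraries (chromosome 18, 60774510 to 60778546, plus strand, mm10). All 3 cKO values lay above all 3 floxed values, with means of 272 ± 8.03 RPKM in cKO and 224 ± 5.30 RPKM in floxed libraries (SD, n = 3 each) on 6270 to 8643 reads per library. This gave a log2 difference of 0.28 (SE 0.04, 95% confidence interval 0.18 to 0.37) and limma's adjusted p = 0.0308.

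Rps27 encodes a small zinc-finger protein of the 40S subunit (chromosome 3, 90212522 to 90213651, minus strand). It was at 316, 282 and 313 RPKM in cKO, against 249.5, 232 and 234 RPKM in floxed libraries. The groups did not overlap, with means of 304 ± 18.8 RPKM in cKO and 239 ± 9.59 RPKM in floxed libraries. The log2 difference was 0.35 (SE 0.06) and limma's adjusted p = 0.0499 lay close to the threshold. Leaving out any 1 of the 6 libraries ended the call of both genes, and each kept it in 7 of 15 alternative settings, over which limma's adjusted p ran from 0.0195 to 0.138 for Rps14 and from 0.0312 to 0.179 for Rps27. Among the 7 settings, adding pseudogene reads was no test of either call, since it gave 0 reads to Rps14 and 2 to Rps27. Voom gave adjusted p of 0.000306 for Rps14 and 0.000108 for Rps27.

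The row Rps27rt, a near-copy of Rps27 on chromosome 9, held 6.11 to 8.35% as many reads as Rps27 in cKO and 7.84 to 9.12% in floxed libraries. The labels do not say how reads that match both were counted, so the split between them is uncertain. Rps27rt itself had a log2 difference of 0.11 (limma, adjusted p = 0.779).

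Rps27l, the paralogue of Rps27 that p53 is known to induce, went the other way without passing. It was at 5.24, 4.88 and 4.11 RPKM in cKO, against 9.76, 5.35 and 6.85 RPKM in floxed libraries, on 74 to 173 reads per library. The groups did not overlap, floxed replicate 1 was the highest library, and the log2 difference was -0.51 (SE 0.20, limma, adjusted p = 0.319), the largest in size of any tested member. As a share of Rps27 reads, Rps27l reads were 1.03 to 1.35% in cKO and 1.81 to 3.06% in floxed libraries, ranges that did not overlap.

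Among the other small-subunit members, Rps6, whose protein is phosphorylated by S6 kinase downstream of mTORC1, was at 879, 883 and 939 RPKM in cKO, against 879, 839 and 876 RPKM in floxed libraries (log2 difference 0.06, limma, adjusted p = 0.628). Its groups overlapped. Rpsa, once described as a laminin receptor, had a log2 difference of 0.06 (95% confidence interval -0.04 to 0.15), and the X-linked Rps4x one of -0.02 (-0.13 to 0.09). Rps24, with the highest level of the subunit, was at 1755, 1746 and 1808 RPKM in cKO, against 1911, 1618 and 1736 RPKM in floxed libraries, which overlapped (log2 difference 0.01).

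Rps29 had a log2 difference of -0.08 and did not pass (limma, adjusted p = 0.851). The low rows Rps4l and Rps12l1, paralogues by their symbols, rested on 30 to 76 and 16 to 38 reads per library, and their log2 differences of 0.21 and -0.14 had 95% confidence intervals of -0.43 to 0.86 and -0.79 to 0.52.

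Of the 50 tested large-subunit members, 0 passed in limma. Before adjustment (p under 0.05) limma placed 9 (18%) higher and 1 (2%) lower, against 5.55% and 8.6% of all tested genes. Voom called 8 (16%) higher and 1 (2%) lower, against 1.78% and 2.41% of all tested genes. Rpl22l1, the paralogue of the RNA-binding protein gene Rpl22, had the largest positive difference of all members. It was at 17.8, 17.6 and 18.8 RPKM in cKO, against 13.9, 14.4 and 12.9 RPKM in floxed libraries, and the groups lay well apart. The means were 18.1 ± 0.672 RPKM in cKO and 13.7 ± 0.786 RPKM in floxed libraries, the log2 difference was 0.37 (SE 0.06) and limma's adjusted p = 0.0535. The adjusted p fell below the threshold in 4 of 15 alternatives, within a range of 0.0315 to 0.184, and was 0.0315 with voom on recovered reads.

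Rpl22 itself, which mouse T cells need for their development, was at 217, 217 and 222.5 RPKM in cKO, against 208, 186.5 and 208 RPKM in floxed libraries. These groups did not overlap either, by a smaller distance, with a log2 difference of 0.12 (limma, adjusted p = 0.358). Rpl22l1 reads were 5.54 to 5.79% of Rpl22 reads in cKO and 4.23 to 5.28% in floxed libraries, and these ranges did not overlap.

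**Figure D2:**
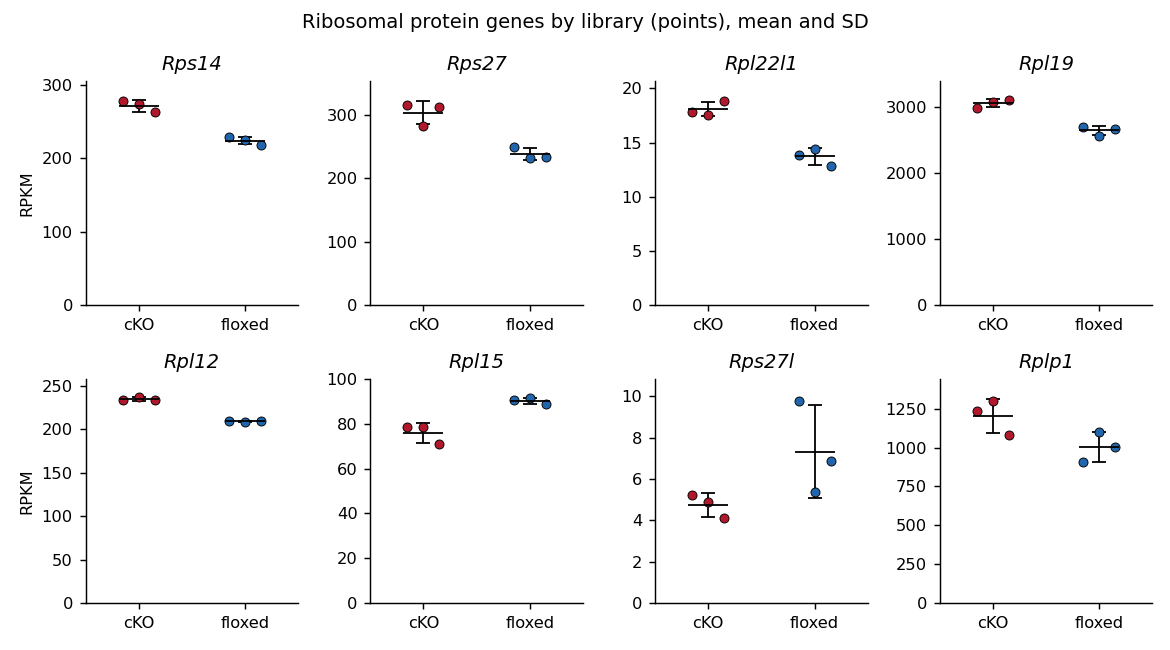
RPKM of 8 ribosomal protein genes (vertical axes start at 0 and differ between panels) in the 3 cKO libraries (red, left) and the 3 floxed libraries (blue, right); points are libraries, the long bar is the mean and the whiskers are the SD. The groups lie apart in every panel except Rplp1, with cKO below floxed in Rpl15 and Rps27l.

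Rpl19, at a bridge between the subunits, had the highest level of all members and the sixth highest of all rows, and was at 2984, 3076 and 3098 RPKM in cKO, against 2694, 2568 and 2672 RPKM in floxed libraries. The groups did not overlap on 52883 to 69857 reads per library, with a log2 difference of 0.21 (SE 0.04). Limma's adjusted p = 0.0779 did not pass, whereas voom's adjusted p was 2.39e-06.

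Rpl12, at the base of the stalk that binds translation factors, was at 234, 238 and 234 RPKM in cKO, against 209.5, 209 and 210.2 RPKM in floxed libraries. Both groups were narrow and did not overlap, with a log2 difference of 0.17 (limma, adjusted p = 0.0823). On voom's test Rpl12, Rpl13a, Rpl19, Rpl21, Rpl22l1, Rpl23a, Rpl6 and Rplp1 of the large subunit were higher in cKO, beside Rps14 and Rps27.

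Rpl15, which joins the large subunit early in its assembly, was the one member that voom called lower, with an adjusted p of 0.00719. It was at 78.5, 78.7 and 70.9 RPKM in cKO, against 90.8, 91.5 and 88.8 RPKM in floxed libraries. The groups did not overlap, with means of 76.0 ± 4.48 RPKM in cKO and 90.3 ± 1.40 RPKM in floxed libraries, a log2 difference of -0.25 (SE 0.05) and limma's adjusted p = 0.101. The other members lowest in log2 difference were Rpl6l (-0.25), Rpl39 (-0.17) and Rpl38 (-0.15), whose groups overlapped and whose adjusted p in limma was 0.576 or higher. Rpl38 is known in mice for its part in translating Hox mRNAs, and Rpl39 lines the tunnel through which new proteins leave.

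The P stalk of the large subunit, made of Rplp0, Rplp1 and Rplp2, recruits the elongation factors. Rplp1 was at 1233, 1299.8 and 1083 RPKM in cKO, against 907, 1102 and 1006 RPKM in floxed libraries, which overlapped (log2 difference 0.26, limma, adjusted p = 0.283). Voom gave an adjusted p of 0.00828 for Rplp1. Rplp2 had a log2 difference of 0.12 and Rplp0 one of -0.00 (95% confidence interval -0.14 to 0.14), and neither passed either test.

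Rpl5 and Rpl11, whose proteins bind Mdm2 together with 5S ribosomal RNA when ribosome assembly is disturbed, differed little. Rpl5 was at 827 ± 19.4 RPKM in cKO and 804 ± 9.91 RPKM in floxed libraries (log2 difference 0.04, 95% confidence interval -0.05 to 0.13). Rpl11 was at 131 ± 5.57 RPKM in cKO and 138 ± 5.40 RPKM in floxed libraries (log2 difference -0.07, -0.19 to 0.05). The X-linked Rpl10, Rpl36a and Rpl39 had log2 differences of -0.02, 0.16 and -0.17, values of both signs. Rpl27 and Rpl23a, the second of which encodes a protein near the tunnel exit, had log2 differences of 0.19 and 0.18 (limma, adjusted p = 0.383 and 0.384).

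Among the other paralogue pairs, Rpl36al reads were 36.2 to 39.5% of Rpl36a reads in cKO and 40.5 to 49.4% in floxed libraries, without overlap, although neither gene passed (log2 differences -0.09 and 0.16). Rpl7l1 reads were 3.70 to 4.10% of Rpl7 reads in cKO and 3.60 to 4.34% in floxed libraries, and overlapped. The shares of Rpl6l in Rpl6, Rps4l in Rps4x and Rps12l1 in Rps12 reads overlapped too, as did that of Rps27rt. How often such shares lie apart in other gene pairs was not tested. Rpl3, with 561 ± 4.76 RPKM in cKO and 567 ± 10.3 RPKM in floxed libraries, was nearly level (log2 difference -0.01). Its muscle paralogue Rpl3l was listed at 0 in every library except cKO replicate 3, at 0.0276 RPKM. Rpl39l was listed at 0, 0 and 0.327 RPKM in cKO, against 0, 0.597 and 0.334 RPKM in floxed libraries. Rpl3l and Rpl39l were the members left untested.

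Set against each other, the subunits had medians of log2 difference of 0.01 (33 small-subunit genes) and 0.04 (50 large-subunit genes), beside -0.03 over all tested genes. Of the small-subunit members, 17 lay above 0 and 16 below, and of the large-subunit members 32 lay above and 18 below. Together 49 of 83 members (59.0%) lay above 0, against 42.7% of all tested genes. Scaling by median-of-ratios or by the 75th percentile, which raise the median of all genes to -0.00, gave 59 above and 24 below. Values that did not overlap between groups were found in 16 members higher in cKO (19.3%), 4 small and 12 large, and in 5 lower in cKO (6.02%), 1 small and 4 large. Over all tested genes 7.61% were higher and 12.7% lower without overlap. The lower ones were Rps27l, Rpl15, Rpl10a, Rpl29 and Rpl4, and the last had a log2 difference of only -0.05.

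The small-subunit genes summed to 11398, 11271 and 11866 RPKM in cKO, against 12128, 10332 and 11095 RPKM in floxed libraries, which overlapped. The large-subunit genes summed to 22218, 22168 and 22400 RPKM in cKO, against 21644, 20309 and 20988 RPKM in floxed libraries, where every cKO library was higher. A sum weighs the highest genes most. Among these, Rpl19 had means of 3053 RPKM in cKO and 2645 RPKM in floxed libraries, Rpl23a 1989 and 1765, and Rplp1 1205 and 1005. Still, 18 of the 50 tested large-subunit genes had a log2 difference below 0. The ratio of the small to the large sum was 0.513, 0.508 and 0.530 in cKO, against 0.560, 0.509 and 0.529 in floxed libraries, and the groups overlapped. All members together took 5.01, 4.996 and 5.12% of reads in cKO and 5.04, 4.63 and 4.83% in floxed libraries.

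**Figure D3:**
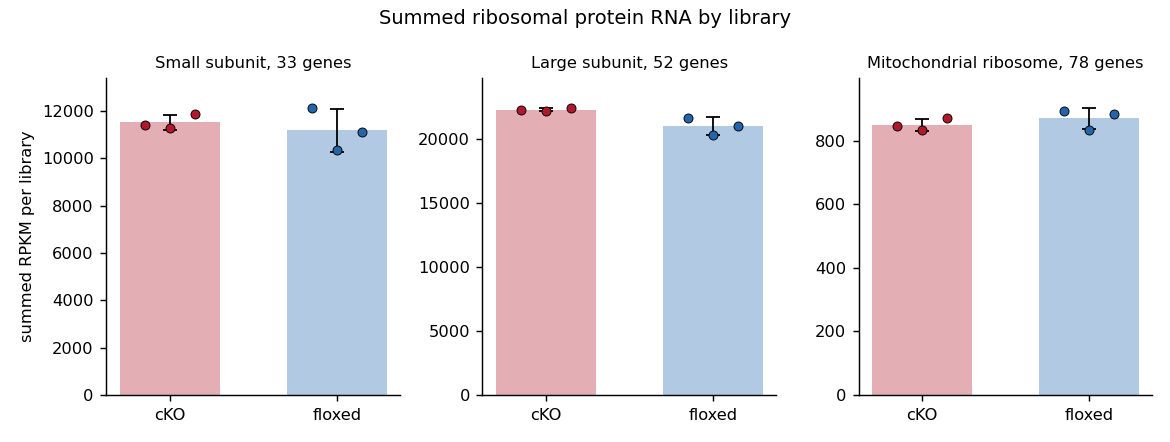
Summed RPKM per library (vertical axes from 0) of 33 small-subunit genes, 52 large-subunit genes and 78 mitochondrial ribosome genes, for the 3 cKO libraries (red, left) and the 3 floxed libraries (blue, right); bars are means, points libraries and whiskers the SD. The groups overlap for the small subunit and the mitochondrial ribosome, and the large-subunit sums are 22168 to 22400 RPKM in cKO and 20309 to 21644 RPKM in floxed libraries.

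The 3 floxed libraries differed among themselves in these genes more than the cKO libraries did. Floxed replicate 1 was the highest of its group in 62 of 83 members and floxed replicate 2 the lowest in 58. The median deviation from the group mean, on the log2(RPKM + 1) scale, was -0.00, -0.01 and 0.01 in cKO replicates 1, 2 and 3, and 0.08, -0.08 and -0.00 in floxed replicates 1, 2 and 3. In the small subunit alone it reached 0.15 and -0.11 in floxed replicates 1 and 2, and in the large subunit 0.06 and -0.05. The same libraries stood apart in 400 other tested genes whose principal mRNA is below 750 bases, at 0.06 and -0.07, whereas over all tested genes the median deviation of every library was within 0.01 of 0. The part of transcript length in the members' deviations was not tested. Across 80 members with a GENCODE length, Pearson's r of deviation with log2 mRNA length ran from -0.21 to 0.14 over the 6 libraries, a description over genes of shared libraries.

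The direction of the members as a group rested on these libraries. Without floxed replicate 1, 65 members lay above 0 and 18 below (median 0.08), and without floxed replicate 2, 35 lay above and 48 below (median -0.02). The small-minus-large difference in medians, -0.02, ran from -0.03 to 0.01 when 1 library was left out.

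**Figure D4:**
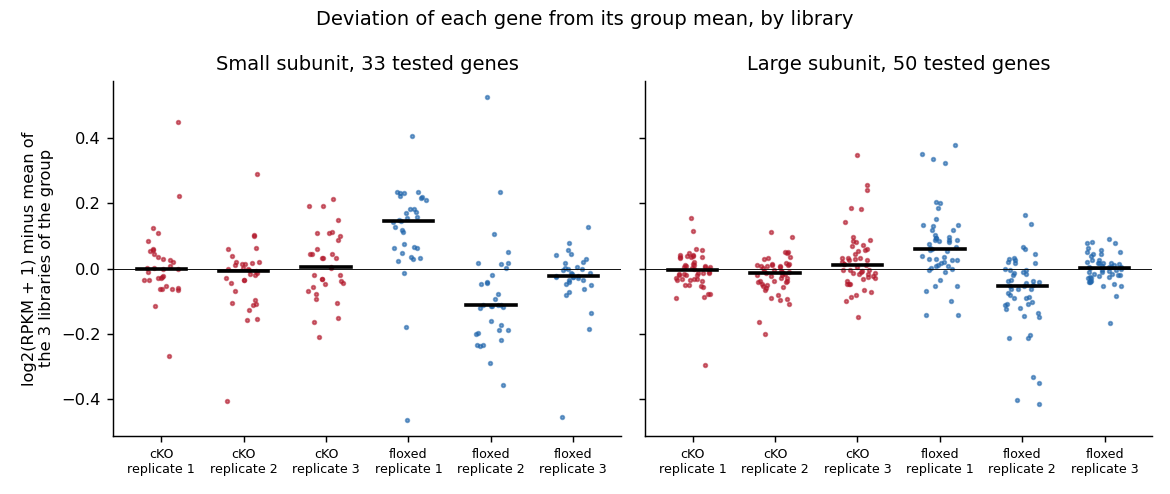
Deviation of each tested gene from the mean of its group in log2(RPKM + 1) (vertical axis), for the 3 cKO libraries (red) and the 3 floxed libraries (blue), with small-subunit genes on the left and large-subunit genes on the right; points are genes and bars medians. Medians in the small subunit are 0.15 in floxed replicate 1 and -0.11 in floxed replicate 2, and within 0.01 of 0 in the cKO libraries. In the large subunit they are -0.0135 in cKO replicate 2 and 0.0124 in cKO replicate 3.

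The members also differed in how much they varied within a group. The within-group coefficient of variation had a median of 5.88% over members. Among members of at least 20 RPKM it was 21.6% in Rpl37, 19.7% in Rpl38, 18.8% in Rpl37a and 15.02% in Rps3, of which Rps3 has a principal mRNA of 1908 bases and the others 345 to 835 bases. Rpl37 was at 173, 157 and 216 RPKM in cKO, against 221, 133 and 167 RPKM in floxed libraries. Its groups overlapped, so that its log2 difference of 0.09 had a 95% confidence interval of -0.39 to 0.56.

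Levels were high and spread widely. Of the 85 members, 56 averaged at least 100 RPKM over the 6 libraries, 26 were among the 100 highest rows of the table and 7 were below 20 RPKM. The median member had 210 RPKM (176 in the small and 225 in the large subunit), against 7.02 RPKM for all tested genes. Rpl19 (2849 RPKM), Rpl23a (1877 RPKM) and Rps24 (1762 RPKM) were highest.

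The spread of RPKM depended in part on the gene lengths in the table, which join all exons that it lists for a gene. The deposited length was a median of 2.29 times and at most 9.80 times the length of the principal GENCODE mRNA. Rps15a had a deposited length of 6270 bases and an mRNA of 640 bases, and its mean of 33.6 RPKM became 329 RPKM per mRNA length. Rpl18 went likewise to 189 RPKM per mRNA length, against 31.7 RPKM per deposited length. Rps26 was lower per mRNA length, at 267 RPKM, against 407 RPKM per deposited length. Over 78 members of at least 20 RPKM, the highest level was 115 times the lowest by deposited length and 88.6 times by mRNA length, and the quartiles were 6.49-fold and 4.03-fold apart. A length cancels in a gene's ratio between groups, so it changes levels and has little bearing on the differences.

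**Figure D5:**
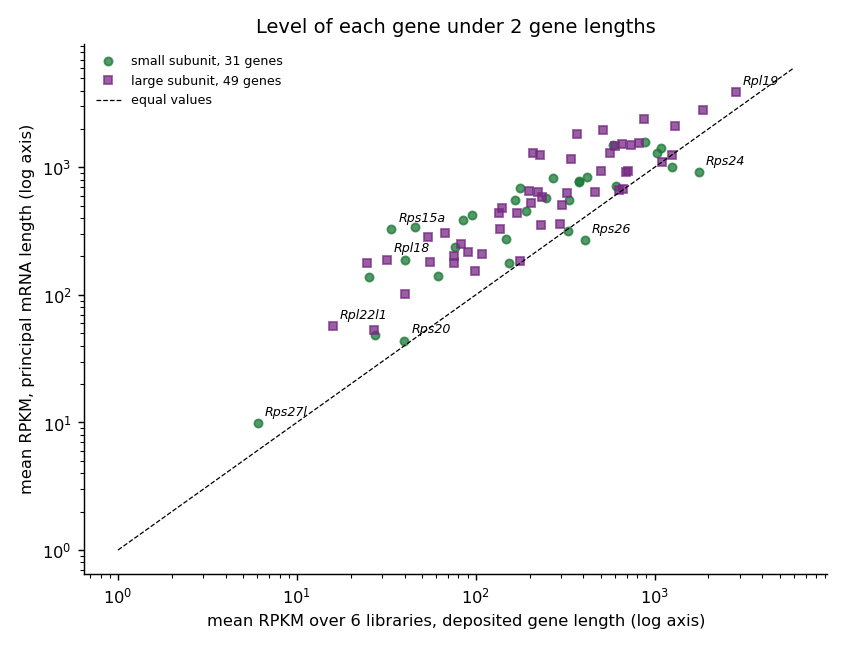
Mean level over the 6 libraries of 31 small-subunit and 49 large-subunit genes, in RPKM by the deposited gene length (horizontal, log axis) and by the principal GENCODE mRNA length (vertical, log axis); the dashed line marks equal values. Most genes lie above the line, Rps15a and Rpl18 far above it, and Rps24 and Rps26 below it.

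Reads of neighbours and copies bear on these values. In 37 members some exon bases are shared with another row of the table. The shared part was largest in Rps12l1, at 100% of exon bases (with Gm44510), then 66.2% in Rpl35 (with Wdr38 and Arpc5l), 62.3% in Rpl23a (with Tlcd1 and Snord42b), 47.0% in Rpl24 (with Gm28037) and 35.4% in Rpl13a (with Flt3l, Snord33 and Mir5121). Rps14 and Rps27 shared none. The table held 168 rows named as pseudogenes of 54 members, and together they took 0.109 to 0.120% of reads per library. Of the 78 such rows tested, 0 passed in limma or voom. At an unadjusted p under 0.05, 3 (3.85%) were higher and 6 (7.69%) lower, against 5.55% and 8.6% of all tested genes. Pseudogene reads were 29.6% of the member's own in Rps13, 14.4% in Rpl17, 14.3% in Rpl38 and 14.1% in Rpl21. Adding them to the members left the 2 calls in place, but this could not test those calls. Rps14 had 0 pseudogene rows, and the 1 row of Rps27 held 2 reads in cKO replicate 3 and 0 in each other library.

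Ribosomal proteins with other symbols were close to 0 as well. Fau, Rack1 and Rps3a1 had log2 differences of -0.00, -0.07 and 0.02, and of the 5 such rows tested, 0 passed in limma or voom and 0 had an unadjusted p under 0.05. Fau encodes a ribosomal protein fused to a ubiquitin-like protein, and Rack1 is a signalling scaffold on the 40S head.

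Of 78 genes of the mitochondrial ribosome, a separate particle that translates the mitochondrial genome, 0 passed in either direction in limma or voom. The median log2 difference was -0.06. At an unadjusted p under 0.05, 5 (6.41%) were lower and 0 higher, against 8.6% of all tested genes lower. Without overlap 7 (8.97%) were lower and 0 higher, against 12.7% of all tested genes lower. The mitochondrial genes summed to 848, 834 and 871 RPKM in cKO, against 894, 833 and 885 RPKM in floxed libraries.

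Of 38 translation factor genes, 1 (2.63%) passed in limma as higher in cKO and 0 as lower, against 0.652% and 0.668% of all tested genes. The gene that passed was Eif1, whose protein guards the choice of the start codon, at 114.5 ± 2.62 RPKM in cKO and 91.4 ± 3.75 RPKM in floxed libraries (log2 difference 0.32, SE 0.05, limma, adjusted p = 0.0264). At an unadjusted p under 0.05, 3 of the 38 (7.89%) were higher and 3 (7.89%) lower, against 5.55% and 8.6% of all tested genes. Voom called 3 (7.89%) higher and 1 (2.63%) lower, against 1.78% and 2.41%. The median was -0.03, with 14 of the 38 above 0 and 24 below. Values did not overlap in 4 that were higher (10.5%) and 9 that were lower (23.7%), against 7.61% and 12.7% of all tested genes. A list of mRNAs known for TOP tracts had 16 tested genes, of which 10 are also among the translation factors or the ribosomal proteins with other symbols. Of the 6 left, 0 passed in limma, before adjustment (p under 0.05) 1 was higher (Vim) and 1 lower (Nap1l1), and voom called 2 higher (Vim and Tpt1) and 1 lower (Nap1l1). The elongation factor gene Eef2 was at 706 ± 1.81 RPKM in cKO and 664 ± 10.7 RPKM in floxed libraries, a log2 difference of 0.09 (limma, adjusted p = 0.306).

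Of 22 tested genes of the mTORC1, LARP1 and Myc pathway, 0 passed in limma or voom. At an unadjusted p under 0.05, limma placed 0 higher and 1 lower, Rheb, the GTPase that activates mTORC1 (log2 difference -0.27, adjusted p = 0.221). Of the 22, 0 were higher and 5 (22.7%) lower without overlap. Larp1 was at 30.5 ± 0.363 RPKM in cKO and 32.7 ± 1.19 RPKM in floxed libraries (log2 difference -0.10, limma, adjusted p = 0.425). Of 19 tested genes that assemble ribosomal proteins, rescue stalled ribosomes or act in their quality control, 0 passed in limma. Voom called 0 higher and 1 (5.26%) lower, against 2.41% of all tested genes lower. At an unadjusted p under 0.05, 0 were higher and 3 (15.8%) lower, against 8.6% of all tested genes lower. Of these 19, 0 were higher and 5 (26.3%) lower without overlap. The shares of all tested genes without overlap were 7.61% higher and 12.7% lower. The lowest p was that of the histone chaperone gene Nap1l1, which also has a TOP tract, at 87.1 ± 2.97 RPKM in cKO and 97.9 ± 2.39 RPKM in floxed libraries (log2 difference -0.17, limma, adjusted p = 0.164).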

How the data were processed

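The authors deposited 1 table of RPKM for 24628 rows in 6 libraries with exon coordinates and gene lengths, and all value columns were mapped. Per the submitters' processing notes the build was mm10 and the tools included edgeR 3.12.1, featureCounts, STAR 2.5.3a and Subread 1.5.1. The sources used here give no role for these tools, no strand setting, no annotation and no treatment of multi-mapping or duplicate reads. Per the labels' protocols, TRIzol RNA entered a stranded mRNA kit. RPKM times length gave whole reads for 100% of values, within 0.001 reads, and the depth of 20152146 to 22440170 reads per library. Some low rows held only even counts, such as Rps15 pseudogene reads, at 44, 38 and 18 in cKO and 32, 34 and 24 in floxed libraries. Other rows held odd counts. Whether both reads of a pair were counted was not tested, so independent fragments may be fewer than the reads given.

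Rows with at least 1 RPKM in at least 3 libraries (12731) were tested with limma 3.58.1 (R 4.3.3, lmFit, eBayes with trend) on log2(RPKM + 1) with a pseudocount of 1, without covariates, two-sided, adjusted by Benjamini-Hochberg over all tested rows, and the steps were checked on simulated data. This scale understates changes of low genes. Levels are means ± SD of 3 libraries. Alternatives were pseudocounts of 0.5 and 5, other filters and scalings, limma voom on recovered reads, a replicate block, added pseudogene reads and each library left out. Gene types and mRNA lengths came from GENCODE M21 by symbol, and 82 members had a principal mRNA. RefSeq starts on GRCm38.p6 were matched by symbol.

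Members and gene lists were chosen with earlier results of these data known, so counts over them are descriptions. The genes named were those that passed, the 4 highest and 4 lowest by difference in each subunit, the 3 highest and 3 lowest by level, paralogue pairs and a fixed set of well-known members. In each other list they were passing genes, at most 4 by p, and at most 2 others. Rpl12, the other members called by voom or without overlap, the most variable members, those at the extremes of length, overlap or pseudogene reads, and Rheb, Larp1, Nap1l1, Vim, Tpt1 and Eef2 were singled out after their values were seen. A few genes that these rules take are not reported here.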

Additional observations from a re-analysis of the deposited data

How the results depend on the processing

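Over all tested genes, 83 were higher and 85 lower in cKO. The counts were 44 and 36 with no filter on low values, 37 and 23 with the replicate block, and 226 and 307 with voom on recovered reads. Leaving out 1 library gave 33 to 50 higher and 27 to 39 lower. Of the members, 2 were higher and 0 lower. With a mean of at least 5 RPKM 4 were higher (Rpl19 and Rpl22l1 beside Rps14 and Rps27), with no filter 0, with the replicate block 0, and with voom 10 higher and 1 lower. Leaving out any 1 library gave 0 higher and 0 lower. The cause of these changes was not tested. Over single libraries left out, the median of the small subunit ran from -0.04 to 0.08, that of the large subunit from -0.00 to 0.07 and their difference from -0.03 to 0.01. Under the 9 other alternatives these 3 medians moved by less than the spread between libraries.

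Same-numbered libraries did not deviate together (correlations of -0.03, 0.01 and 0.04 for the 3 numbers), so the replicate block rests on a shared number only.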
